A study of Mus musculus with 39 samples.

Results

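The genes described here are 10 interleukin and TNF family cytokines, Tnf, Lta, Ltb, Il1a, Il1b, Il1rn, Il6, Il10, Il15 and Il18. They were matched by symbol, and the rule that lists them uses no measured value. The set was nevertheless chosen with earlier results of these data known. All 10 are listed among the 24537 genes of the kidney, liver and lung table and among the 52508 genes of the skin table. Their level was read from whole tissue in 39 libraries of a bulk MARS-seq protocol, which counts reads from the 3′ ends of transcripts. The design asks how each tissue differs with age and, in old mice, with a drug that kills senescent cells.

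All mice were male Prf1-/- animals on a C57BL/6 background. They lack perforin, the pore-forming protein with which cytotoxic lymphocytes kill their targets, and every group shares this deletion, with no wild-type group among the libraries. Young mice were 3 months old and untreated. Old mice were 20 months old and were given either vehicle or ABT-737, a small molecule that blocks survival proteins such as BCL-2 and BCL-xL, at 25 mg/kg. Dosing began at 18 months of age, on 2 consecutive days of each month for 2 months. Some drug-treated libraries carry treatment labels that read ABT-738 or ABT-739, and their titles place them in the ABT-737 group. Age and the vehicle injections cannot be told apart, because young mice received no vehicle. Kidney, liver and lung had 4 young libraries each and skin had 3, and every other group had 3.

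Cytokines are secreted or membrane-bound proteins by which immune and tissue cells signal to each other. Tnf, Lta and Ltb encode ligands of the TNF family. TNF and lymphotoxin alpha act as soluble trimers, and lymphotoxin beta holds lymphotoxin alpha at the lymphocyte surface in a complex that signals through the lymphotoxin beta receptor. Il1a, Il1b and Il18 encode agonists of the IL-1 family, of which IL-1 beta and IL-18 are made as inactive precursors and cut by inflammasome caspases. Il1rn encodes the receptor antagonist that occupies the IL-1 receptor without signalling. IL-6 signals through STAT3 and is a well-known part of the senescence-associated secretory phenotype, IL-10 restrains macrophages, and IL-15 sustains natural killer and memory T cells and is made by epithelial and myeloid cells.

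Libraries held 1493411 to 3842808 counts in skin, 1431814 to 3513311 in kidney and 1046508 to 2600092 in lung, while liver was shallower, with 223957 to 891116. Levels are given as CPM, the usual count normalised to the total of the library, after TMM scaling of the totals, and 3 counts corresponded to 3.51 to 13.1 CPM in liver but to 0.778 to 2.17 CPM in skin. The tables were counted on different transcript models, so no level is compared between skin and the other tissues, and no level is compared between genes. The defining markers of each labelled tissue were present in all its libraries, with summed levels of 27500 to 60200 CPM in lung, 9600 to 11500 CPM in kidney, 64000 to 97900 CPM in liver and 9910 to 34800 CPM for keratinocyte markers in skin. Lung ABT-737 replicate 4 stood apart with 2930 CPM of adipocyte markers, against at most 103 CPM in any other lung library. Skin also held skeletal muscle transcripts, at 40400 to 59700 CPM in young, 6610 to 27100 CPM in vehicle and 10800 to 31400 CPM in ABT-737 libraries.

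On the GRCm38 build the TNF family genes are neighbours. Ltb (NM_008518) lies at chr17:35194507-35196305 on the plus strand, Tnf (NM_013693) at chr17:35199367-35202007 on the minus strand, and Lta (NM_010735) at chr17:35203165-35205351 on the minus strand. Il1a (NM_010554, chr2:129299610-129309972) and Il1b (NM_008361, chr2:129364578-129371139) lie on the minus strand of chromosome 2, and Il1rn (NM_031167, chr2:24336860-24351491) on its plus strand. Il6 (NM_001314054) is at chr5:30013114-30019975, Il10 (NM_010548) at chr1:131019845-131024970, Il15 (NM_008357) at chr8:82331624-82402586 and Il18 (NM_008360) at chr9:50565368-50581837. The intervals of these 10 genes in the skin table reach 2000 bases past the annotated 3′ end of the transcript, except for Tnf and Lta, which end with it. An antisense gene overlaps Il1b (Il1bos, at most 9 counts in any library) and another overlaps Il1a (Gm14023, at most 5 counts). Bco2, on the opposite strand, overlaps Il18 and had 10 to 48 counts in kidney, at most 8 in liver and lung and at most 7 in skin, and use of strand in counting is not given in the sources used here.

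The promoters of the genes on which the results turn are shown as the 250 bases before the RefSeq start site, 5′ to 3′ on the gene's strand, from the GRCm38.p6 assembly. Ltb, Tnf and Il1b were called higher together in old lung, and Il6 is shown for contrast because it was almost unread. Capitals mark matches to the kappaB consensus, the site that NF-kB proteins bind, searched on both strands.
Ltb, chr17:35194257-35194506, plus strand: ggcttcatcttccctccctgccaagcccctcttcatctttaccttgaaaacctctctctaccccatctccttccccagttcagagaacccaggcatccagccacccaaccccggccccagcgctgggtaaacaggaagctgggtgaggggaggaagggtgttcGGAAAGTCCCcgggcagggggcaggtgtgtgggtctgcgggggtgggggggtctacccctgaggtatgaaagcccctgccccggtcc
Tnf, chr17:35202008-35202257, minus strand: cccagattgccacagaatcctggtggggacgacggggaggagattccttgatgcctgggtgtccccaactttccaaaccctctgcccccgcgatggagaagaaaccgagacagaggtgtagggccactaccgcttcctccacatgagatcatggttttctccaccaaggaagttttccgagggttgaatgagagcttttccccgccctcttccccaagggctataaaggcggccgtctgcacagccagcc
Il1b, chr2:129371140-129371389, minus strand: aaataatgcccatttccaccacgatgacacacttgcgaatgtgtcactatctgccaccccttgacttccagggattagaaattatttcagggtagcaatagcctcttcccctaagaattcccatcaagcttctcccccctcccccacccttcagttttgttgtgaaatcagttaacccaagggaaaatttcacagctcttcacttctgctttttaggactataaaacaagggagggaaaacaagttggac
Il6, chr5:30012864-30013113, plus strand: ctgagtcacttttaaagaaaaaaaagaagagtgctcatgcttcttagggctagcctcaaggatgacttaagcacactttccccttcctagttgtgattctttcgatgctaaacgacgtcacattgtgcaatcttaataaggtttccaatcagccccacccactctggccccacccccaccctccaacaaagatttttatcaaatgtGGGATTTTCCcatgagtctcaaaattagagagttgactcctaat
The Ltb window held 1 match, from base -87 to base -78, and the Il6 window held 1, from base -44 to base -35. The windows of Tnf and Il1b held none. Of the 8 members with a promoter window, these 2 held a match, and over all 32851 windows the share was 7.25%. A match describes letters and not a bound site, and Il6, despite its match, was never read more than once per library.

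Several cytokine transcripts were higher in old vehicle-treated mice than in young mice in lung and kidney. In lung, 4 of the 7 members that passed the expression filter were called higher at an adjusted p under 0.05, namely Ltb, Il1b, Tnf and Il18, and 0 were called lower. Over all 11949 lung genes tested, 8.15% were called higher and 4.73% lower. In kidney, 2 of 3 members tested were called higher, Ltb and Il1b, and 0 lower, against 7.75% of all 11123 genes higher and 5.5% lower. In skin, 0 of 4 members tested were called in either direction by edgeR, against 5.84% of all 14224 genes higher and 5.35% lower. DESeq2 called 2, and 3 had an unadjusted p under 0.05 in edgeR. At that unadjusted threshold 2388 of all 14224 skin genes were higher and 2132 lower. In liver, 0 of the 10 members passed the filter, and the shares over the 5583 genes tested were 11.7% higher and 10.8% lower. The members that passed did so partly through the groups where they were high, so these counts describe them and not all 10.

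ABT-737 against vehicle gave 0 called members in any tissue with the fit of 3 groups, and no member tested was called by DESeq2. In lung 3 of 7 members had an unadjusted p under 0.05, in kidney 2 of 3 and in skin 1 of 4. At that threshold 1137 of all 11949 lung genes were higher and 782 lower. In kidney 771 and 876 of 11123 were, and in skin 484 and 650 of 14224. The shares called at an adjusted p under 0.05 over all genes were 0% in both directions in lung and in skin. They were 0.135% higher and 1.21% lower in kidney, and 1% higher and 2.85% lower in liver. ABT-737 against young also gave 0 called members, with 3 of 3 in kidney, 3 of 7 in lung and 0 of 4 in skin at an unadjusted p under 0.05. At that threshold 1082 of all 11123 kidney genes were higher and 780 lower. In lung 1718 and 730 of 11949 were, and in skin 2383 and 1888 of 14224. The shares called over all genes at an adjusted p under 0.05 were 2.15% higher and 0.402% lower in lung. They were 1.38% and 0.737% in kidney, 2% and 3.17% in skin, and 3.13% and 5.27% in liver. DESeq2 called Ltb in kidney and Ltb and Il1b in lung higher in ABT-737 than in young. These comparisons share their libraries with the others, so their values are given side by side and are not independent.

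**Figure D1:**
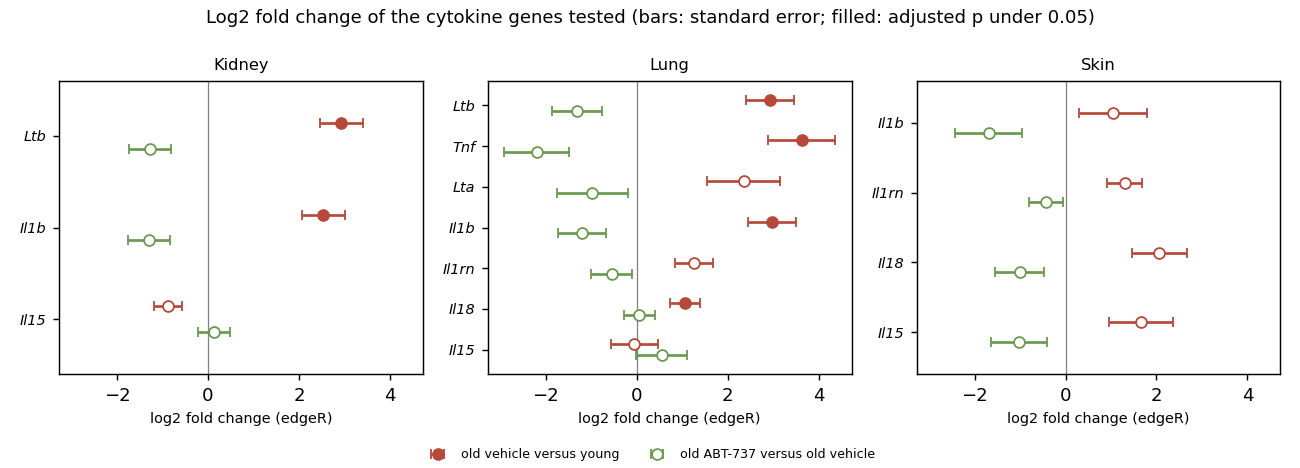
Log2 fold change (horizontal axis) of each cytokine gene tested in kidney, lung and skin, for old vehicle against young (red) and old ABT-737 against old vehicle (green), with bars of 1 standard error and filled points for an adjusted p under 0.05. In lung Ltb, Tnf and Il1b lie at 2.93, 3.63 and 2.97 for vehicle against young and below 0 for ABT-737 against vehicle, where no point is filled.

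The highest counts in lung belonged to Ltb. It was read 39, 55, 34 and 84 times in the young lungs, 189, 334 and 1093 times in the vehicle lungs (replicates 3, 4 and 5), and 46, 95 and 323 times in the ABT-737 lungs (replicates 3, 4 and 5). Its level was 29.9 ± 13 CPM (SD, n = 4) in young, 226 ± 158 CPM (SD, n = 3) in vehicle and 91.4 ± 57.9 CPM (SD, n = 3) in ABT-737 libraries. Every vehicle library stood above every young one, and vehicle replicate 5 was the highest of all. Ltb was 7.61-fold higher in vehicle than in young lung (log2 fold change 2.93, SE 0.529, adjusted p = 0.00432). Without vehicle replicate 5 the log2 fold change was 2.18 (adjusted p = 0.0246). Between ABT-737 and vehicle the lung value was -1.31 (SE 0.549, unadjusted p = 0.0318, adjusted p = 0.261). It was -0.56 without vehicle replicate 5 (adjusted p = 0.855), and it was called in neither fit.

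Ltb was also higher in old kidney, at lower counts. The young kidneys had 1, 15, 10 and 6 counts, the vehicle kidneys 26, 57 and 37, and the ABT-737 kidneys 23, 13 and 15. The vehicle libraries, at 22.2 ± 15 CPM (SD, n = 3), all lay above the young ones, at 2.56 ± 1.55 CPM (SD, n = 4), and 2 of 3 ABT-737 libraries, at 8.68 ± 2.8 CPM (SD, n = 3), lay below every vehicle library. The log2 fold change was 2.93 (SE 0.477, adjusted p = 0.000698) for vehicle against young and -1.28 (adjusted p = 0.199) for ABT-737 against vehicle. Without vehicle replicate 3, the vehicle library with the lowest level, the second difference was -1.65 and was called (adjusted p = 0.0428), and without vehicle replicate 4, the one with the highest level, it was -0.65 (adjusted p = 0.705). It was called in 1 of the 10 fits that left out 1 library. The difference between vehicle and young was 2.3 without vehicle replicate 4 (adjusted p = 0.00398). Against young, all 3 ABT-737 kidneys lay higher, by 1.65 on the log2 scale (SE 0.541, adjusted p = 0.128).

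In liver Ltb had 3, 1, 3 and 1 counts in young, 10, 50 and 16 in vehicle and 1, 2 and 3 in ABT-737 libraries. The vehicle libraries did not overlap either of the other groups. In CPM the levels were 3.46 ± 2.09 (SD, n = 4), 40.9 ± 19.1 (SD, n = 3) and 5.06 ± 2.05 (SD, n = 3). Over the summed counts, vehicle was 12-fold above young (95% counting interval 5.81 to 28.9) and 8.04-fold above ABT-737 (3.53 to 22.6), intervals that cover counting error only. With no filter beyond 1 count, Ltb was called in liver for vehicle against young (log2 fold change 3.41, adjusted p = 1.2e-09). It was also called there for ABT-737 against vehicle (-2.86, adjusted p = 8.36e-05). With only vehicle and young in the fit, where it passed the filter, its log2 fold change was 3.51 (adjusted p = 0.000773). Removing the filter moved the adjusted p at a like effect. For vehicle against young, kidney Ltb went from 0.000698 to 4.38e-07, and lung Il18 from 0.0431 to 0.0642. Unfiltered values are therefore not to be ranked against filtered ones. Skin held few Ltb reads, with 1, 1 and 3 counts in young, 8, 10 and 50 in vehicle and 8, 3 and 14 in ABT-737 libraries, and all vehicle libraries lay above all young ones. The summed counts differed 8.32-fold between vehicle and young skin (95% counting interval 3.4 to 26.4), and with no filter beyond 1 count Ltb was called there (log2 fold change 2.91, adjusted p = 0.0194).

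Tnf was read 2 times in each of the 4 young lungs, 13, 12 and 77 times in the vehicle lungs and 4, 0 and 12 times in the ABT-737 lungs. All vehicle lungs lay above the young ones, while 2 of 3 ABT-737 lungs lay below every vehicle lung. The log2 fold change was 3.63 (SE 0.733, adjusted p = 0.00683) for vehicle against young, and the summed counts differed 14.2-fold (95% counting interval 6.94 to 33.8). It rested in part on vehicle replicate 5, without which the value was 2.54 and was not called (adjusted p = 0.075). ABT-737 against vehicle gave the lowest member value in lung, at -2.2 (SE 0.712, adjusted p = 0.166), or -1.13 without that library (adjusted p = 0.726). Without ABT-737 replicate 4, the library with adipocyte markers and 0 Tnf counts, it was -1.82 (adjusted p = 0.144). In the other tissues Tnf failed the filter. Its counts were 0 to 2 in young, 1 to 6 in vehicle and 0 to 3 in ABT-737 kidneys, and in liver it was read 4 times in vehicle replicate 4, once in ABT-737 replicate 5 and in no other library. Skin had 0, 0 and 7 counts in young, 8, 6 and 42 in vehicle and 10, 2 and 9 in ABT-737 libraries, so that the groups overlapped.

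Lta, the partner of Ltb, was read 7, 3, 3 and 1 times in young lungs, 5, 25 and 41 times in vehicle lungs and 0, 3 and 24 times in ABT-737 lungs. Vehicle replicate 3 lay within the young range. The log2 fold change of 2.35 between vehicle and young (SE 0.794) was not called by edgeR (adjusted p = 0.0657) and was called by DESeq2 (adjusted p = 0.0397). In the other tissues no library had more than 5 counts. In skin Lta was read 5, 1 and 3 times in vehicle libraries and 0 times in every young library, and the summed counts put vehicle at least 1.84-fold higher if the young group had 3 counts in all, with a lower limit of the 95% counting interval of 1.21.

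Il1b had the same order of groups as Ltb in lung. It was read 26, 22, 11 and 26 times in young, 92, 124 and 434 times in vehicle and 51, 12 and 159 times in ABT-737 lungs. The vehicle libraries, at 92.4 ± 60.7 CPM (SD, n = 3), stood above all young ones, at 11.9 ± 4.08 CPM (SD, n = 4), and the ABT-737 libraries spread from 12.6 to 71.1 CPM across both. Vehicle exceeded young 7.81-fold (log2 fold change 2.97, SE 0.522, adjusted p = 0.00398), and the log2 value was 2.27 without vehicle replicate 5 (adjusted p = 0.0221). ABT-737 against vehicle gave -1.21 (SE 0.527, adjusted p = 0.279), or -0.52 without that library (adjusted p = 0.866) and -0.84 without ABT-737 replicate 4 (adjusted p = 0.355). ABT-737 against young gave 1.76 (SE 0.528, adjusted p = 0.0819), and it was called at 2.13 without ABT-737 replicate 4 (adjusted p = 0.0135).

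In kidney Il1b had 4, 2, 6 and 4 counts in young, 20, 8 and 24 in vehicle and 9, 2 and 9 in ABT-737 libraries. In CPM, all 3 vehicle kidneys lay above every young and every ABT-737 kidney. Vehicle exceeded young by 2.54 on the log2 scale (SE 0.465, adjusted p = 0.00173), and the value was -1.29 (adjusted p = 0.197) for ABT-737 against vehicle. Liver had 9 Il1b counts in vehicle replicates 4 and 5, 0 in vehicle replicate 3, 2 in 1 young library and 0 in all ABT-737 libraries. The summed liver counts put vehicle at least 3.81-fold higher than ABT-737, computed with 3 counts over the ABT-737 group, and the lower limit of the 95% counting interval was 2.79. Without the filter, and with the limit given above for liver Ltb, Il1b was called in liver for vehicle against young (adjusted p = 0.00927). It was also called for ABT-737 against vehicle (adjusted p = 0.0245).

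Skin differed from this order. Il1b was read 29, 31 and 36 times in young, 22, 39 and 319 times in vehicle and 69, 19 and 30 times in ABT-737 skin. Only vehicle replicate 5 rose above the young range, and the other 2 vehicle libraries, in CPM, lay below it. The log2 fold change of 1.04 (SE 0.743) became -0.62 when vehicle replicate 5 was left out (adjusted p = 0.382). That library also held the highest summed level of neutrophil markers in skin, 337 CPM. The other vehicle skin libraries had 1.76 and 8.19 CPM, and the young ones at most 0.91 CPM. Skin vehicle replicate 5 also had the highest skin sums of keratinocyte (34800 CPM), leukocyte (572 CPM), macrophage (2030 CPM) and T cell markers (35.3 CPM). Its skeletal muscle sum was the lowest, at 6610 CPM. In lung, vehicle replicate 5 had the highest Il1b level but the lowest neutrophil sum of the vehicle lungs, 68.1 CPM against 133 and 164 CPM. The part of any of these cell types in the Il1b values was not tested. Il1a was read at most 2 times in any lung, at most once in any kidney or skin and in no liver, which is under the level at which a difference could be detected.

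**Figure D2:**
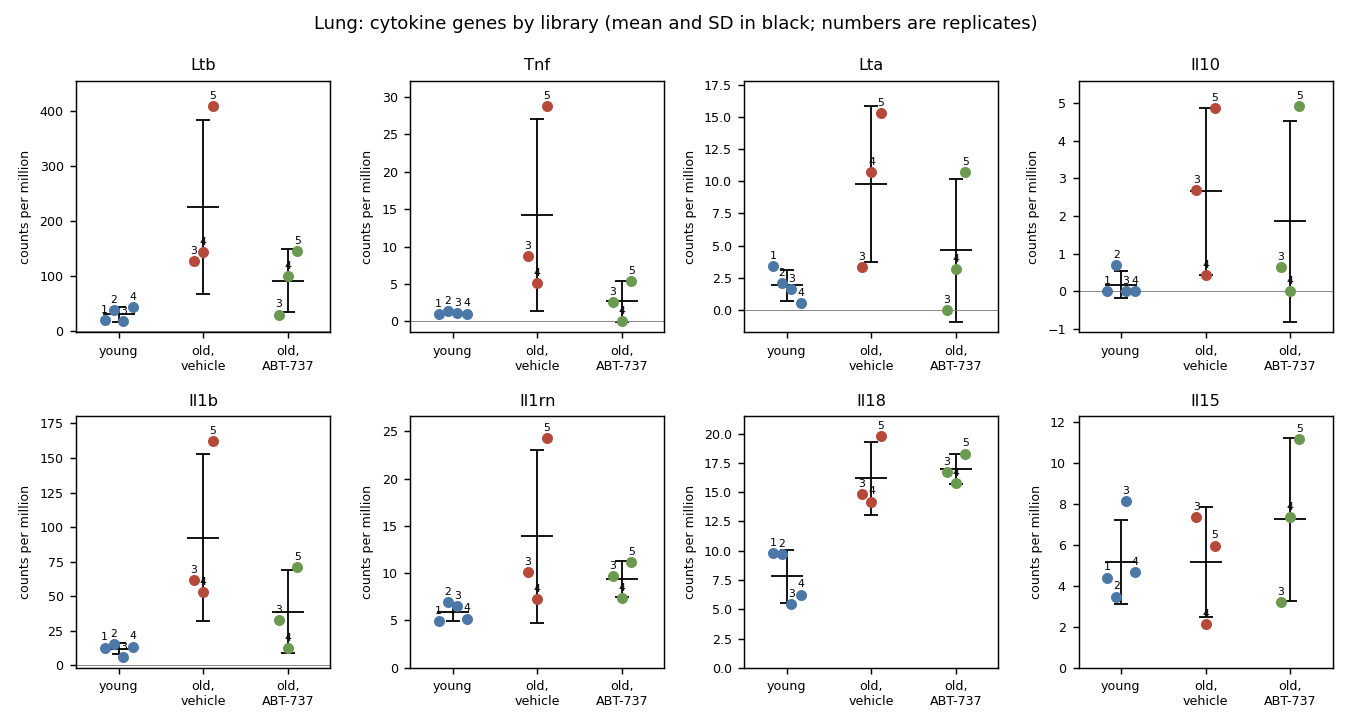
CPM of 8 cytokine genes in each lung library by group, with replicate numbers beside the points and the mean and SD in black. Vehicle replicate 5 is the highest vehicle point for Ltb, Tnf, Lta, Il10, Il1b, Il1rn and Il18, at 409 CPM for Ltb and 28.8 CPM for Tnf, and the young points lie below all vehicle points for Ltb, Tnf, Il1b, Il1rn and Il18.

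Il18 rose in old lung by a smaller step. The counts were 20, 14, 10 and 12 in young, 22, 33 and 53 in vehicle and 26, 15 and 41 in ABT-737 lungs. In CPM, young lungs had 7.8 ± 2.3 (SD, n = 4), vehicle lungs 16.2 ± 3.12 (SD, n = 3) and ABT-737 lungs 17 ± 1.28 (SD, n = 3), and both old groups lay wholly above the young group. Vehicle exceeded young by 1.06 on the log2 scale (SE 0.322, adjusted p = 0.0431). Its call held in 3 of the 10 fits that left out 1 library and was lost when no filter was used (adjusted p = 0.0642). Between the old groups the value was 0.06 (SE 0.333, adjusted p = 0.944), and between ABT-737 and young it was 1.13 (SE 0.328, adjusted p = 0.0761).

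In liver the counts of Il18 were lower in old mice. It was read 9, 8, 10 and 8 times in young, 2, 8 and 5 times in vehicle and 0, 3 and 4 times in ABT-737 livers, and in CPM every old library lay below every young one. The unfiltered log2 fold change was -0.94 for vehicle against young (adjusted p = 0.274), so the liver value alone was not called. The difference between lung and liver in the change from young to vehicle was 1.93 on the log2 scale (SE 0.718, adjusted p = 0.0753) in a fit of kidney, liver and lung together, and 1.94 (adjusted p = 0.039) with lung and liver alone. Kidney Il18 had 5, 17, 7 and 5 counts in young, 10, 5 and 0 in vehicle and 1, 8 and 8 in ABT-737 libraries, and its groups overlapped. Skin had 4, 13 and 13 counts in young, 29, 56 and 132 in vehicle and 79, 14 and 26 in ABT-737 libraries, and the vehicle libraries lay above the young ones. The skin log2 fold change was 2.06 (SE 0.601, adjusted p = 0.0555), and DESeq2 called it (adjusted p = 0.00956). Without vehicle replicate 5 it was 1.56 (adjusted p = 0.17).

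Il1rn, the antagonist, was well read in lung and skin. Young lungs had 10, 10, 12 and 10 counts, vehicle lungs 15, 17 and 65 and ABT-737 lungs 15, 7 and 25. Both old groups lay above the young group in CPM, and the difference of 1.26 between vehicle and young (log2 scale, SE 0.425) missed the threshold (adjusted p = 0.0657) and fell to 0.55 without vehicle replicate 5 (adjusted p = 0.536). In skin the counts were 28, 24 and 39 in young, 56, 83 and 261 in vehicle and 117, 81 and 106 in ABT-737 libraries, with both old groups above the young one. The ABT-737 skin libraries lay close together, at 31.5 ± 0.999 CPM (SD, n = 3), against 42.1 ± 26.1 CPM (SD, n = 3) in vehicle and 17.3 ± 3.25 CPM (SD, n = 3) in young skin. Vehicle against young gave 1.3 on the log2 scale in skin (SE 0.389, adjusted p = 0.0595), which DESeq2 called (adjusted p = 0.0234) and which fell to 0.66 without vehicle replicate 5 (adjusted p = 0.133). ABT-737 against vehicle gave -0.43 in skin and -0.55 in lung, and each turned positive without vehicle replicate 5 of its tissue, to 0.21 and 0.16. In kidney and liver Il1rn had at most 7 counts in any library.

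In kidney Il15 had the highest counts of the 10 genes, and its mean level was highest in young mice. The young kidneys had 47, 124, 100 and 37 counts, the vehicle kidneys 46, 21 and 19 and the ABT-737 kidneys 27, 43 and 20. At 25.2 ± 7.93 CPM (SD, n = 4), 13.8 ± 4.6 CPM (SD, n = 3) and 15.2 ± 5.56 CPM (SD, n = 3), the groups overlapped. Vehicle against young gave -0.88 on the log2 scale (SE 0.302, adjusted p = 0.0637), which was called with only these groups in the fit (adjusted p = 0.0451) and with no filter (adjusted p = 0.0195). ABT-737 against vehicle gave 0.13 (SE 0.349, adjusted p = 0.9). Lung Il15 counts ranged from 5 to 15 in young libraries, from 5 to 16 with vehicle and from 5 to 25 with ABT-737, with a log2 fold change of -0.05 between vehicle and young (adjusted p = 0.966). In skin the counts were 0, 8 and 4 in young, 16, 26 and 19 in vehicle and 17, 5 and 13 in ABT-737 libraries, and in CPM the vehicle libraries lay above both other groups. Neither skin difference was called, at 1.66 (SE 0.696) for vehicle against young and -1.02 (SE 0.61) for ABT-737 against vehicle. In liver Il15 had at most 2 counts.

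Il6 was read once in each of lung vehicle replicates 3 and 4 and in no other library of any tissue, so it was not detectable at this depth outside old lung. Il10 had 4, 1 and 13 counts in vehicle lungs, 1, 0 and 11 in ABT-737 lungs and 1 count over the 4 young lungs. In skin it had 2, 0 and 3 counts in vehicle and 1, 0 and 9 in ABT-737 libraries against 0 in every young library, and in kidney and liver at most 2. Il10 failed the filter in every tissue. With no filter beyond 1 count it was not called in any comparison, and lung vehicle against young came closest (unadjusted p = 0.00531, adjusted p = 0.0502).

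**Figure D3:**
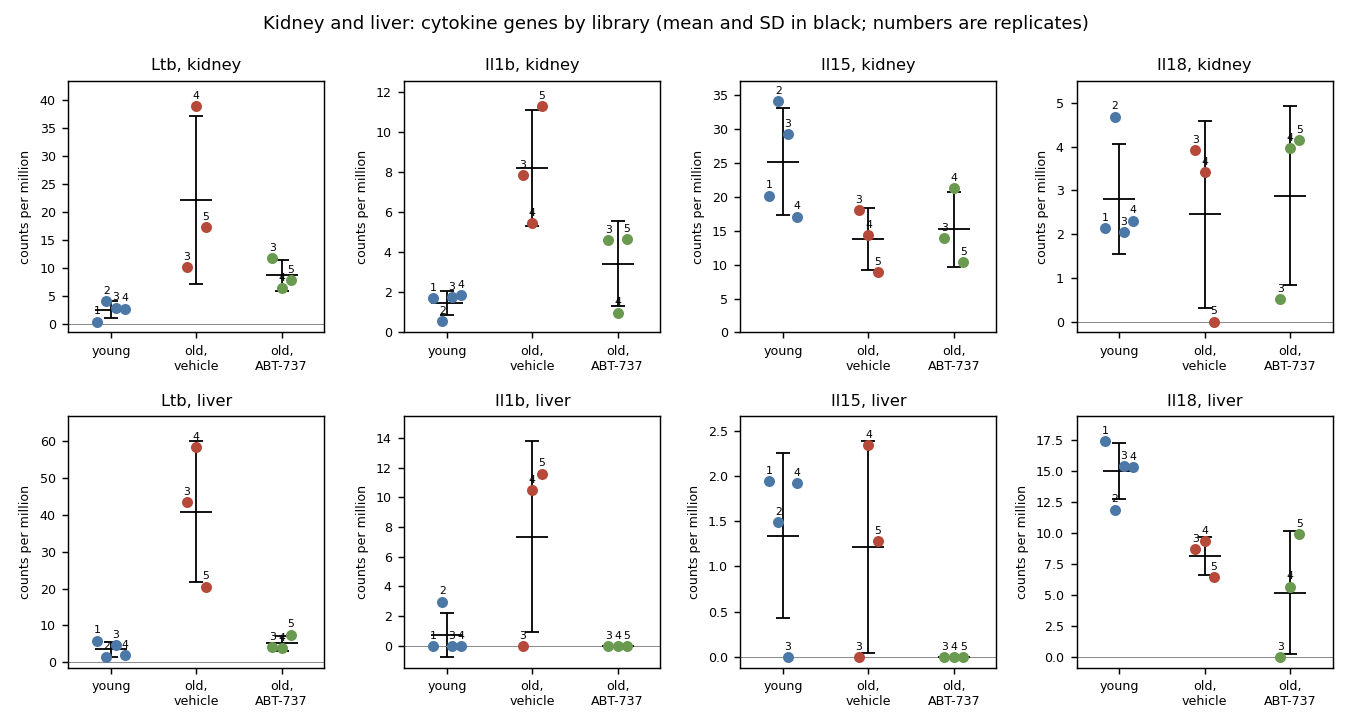
CPM of Ltb, Il1b, Il15 and Il18 in each kidney library (upper row) and liver library (lower row) by group, with the mean and SD in black. Vehicle points lie above all young points for Ltb in both tissues and for Il1b in kidney, while liver Il18 is below the young points in both old groups.

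**Figure D4:**
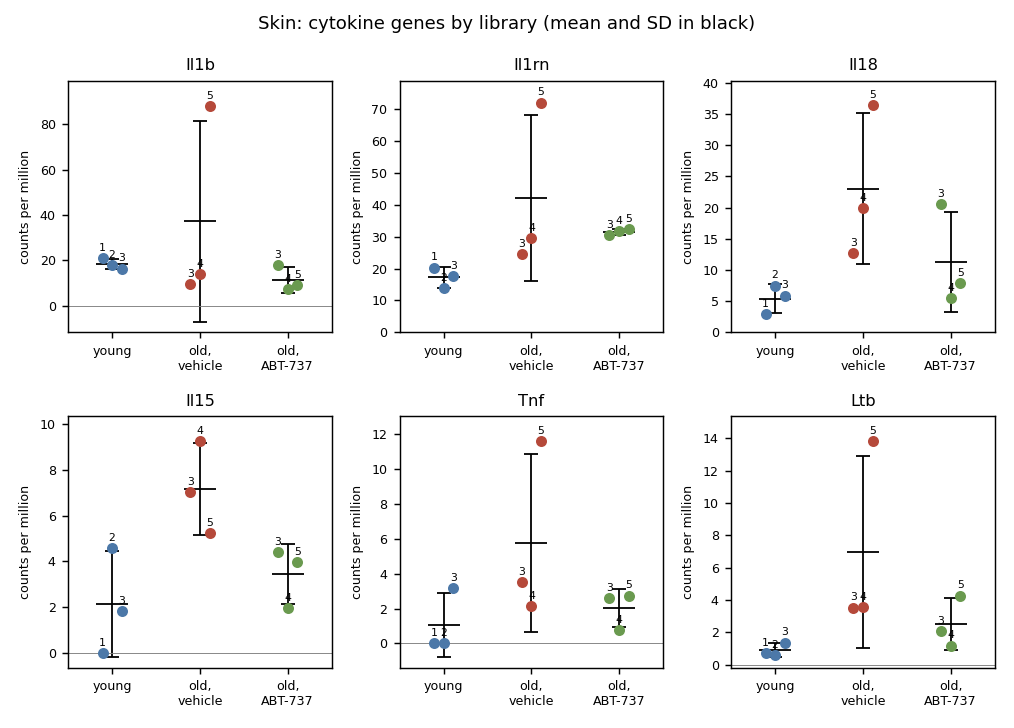
CPM of 6 cytokine genes in each skin library by group, with the mean and SD in black. Vehicle replicate 5 is the highest point for Il1b at 88 CPM, and also for Il1rn, Il18, Tnf and Ltb.

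The genes that lead and follow these cytokines were described from lists written for the pathway, with earlier results of these data known. For vehicle against young, the shares called higher over all genes tested were 8.15% in lung, 7.75% in kidney, 5.84% in skin and 11.7% in liver. The shares called lower were 4.73%, 5.5%, 5.35% and 10.8%. Of 16 receptors and soluble inhibitors, old vehicle lungs had 8 of 15 tested called higher than young, kidneys 6 of 12, skin 5 of 13 and livers 4 of 9, with 1 called lower in liver. Il18bp, the soluble decoy of IL-18, rose in lung (log2 fold change 2.9, SE 0.455), liver (1.84, SE 0.375) and kidney (1.35, SE 0.332). Il1r2, the decoy receptor for IL-1, rose in lung (3.33, SE 0.594). Il2rb and Il2rg, the chains through which IL-15 signals, rose in kidney (3.71 and 2.01) and skin (2.42 and 2.5), and Il2rb also rose in lung (3.85). Il10ra, a chain of the IL-10 receptor, rose in kidney, lung and skin (2.02, 2.42 and 2.03). Tnfrsf1b, a TNF receptor, rose there as well, by 1.48, 1.49 and 2.71. The called genes of liver were Il6st and Il6ra, the IL-6 receptor chains (1.08 and 1.4), Il18bp and Tnfrsf1a, a TNF receptor (0.81), and Il1rap, the accessory chain of the IL-1 receptor, was lower there (-2.22, SE 0.33).

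Between ABT-737 and vehicle, Il18bp was lower in kidney (-1.77, SE 0.402, adjusted p = 0.0373) and liver (-2.26, SE 0.479, adjusted p = 0.0122), and Il2rg was lower in kidney (-1.36, SE 0.307, adjusted p = 0.0369). No other gene of this list was called, and none in lung or skin. The lungs were also fitted with vehicle and ABT-737 libraries of the same replicate number as pairs, a pairing chosen from these same data. That paired fit called 0.174% of 11519 genes higher and 0.451% lower, where the fit without pairs called 0% in both directions. Il2rb was among the lower ones (-2.32, adjusted p = 0.0423). No cytokine member was called in that paired fit, in which Tnf had -2.38 (adjusted p = 0.0728), Il1b -1.33 (adjusted p = 0.0902) and Ltb -1.36 (adjusted p = 0.103). Against young, ABT-737 livers had higher Il6ra (1.56) and lower Il1rap (-1.2).

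Of 10 genes for cytokine processing, 4 of 8 tested were higher in vehicle than in young lung, 3 of 6 in kidney, 2 of 3 in liver and 0 of 5 in skin, where 3 had an unadjusted p under 0.05. None was called lower, and the shares called over all genes are those given with the receptors. At the unadjusted threshold 2388 of all 14224 skin genes were higher and 2132 lower. Pycard, the inflammasome adaptor, rose in lung (2.57, SE 0.421) and kidney (0.97, SE 0.202). Casp4, a caspase that senses bacterial lipopolysaccharide, rose in both as well (2.41 and 1.9), as did Aim2, a sensor of DNA, and Casp8 in lung (2.9 and 0.98). Gsdmd, the pore former through which IL-1 beta leaves cells, rose in kidney (1.56) and liver (0.76), and Adam17, the protease that sheds TNF, rose in liver (1.04). No gene of this list was called between ABT-737 and vehicle. An unadjusted p under 0.05 was seen for 3 of 6 in kidney, 2 of 8 in lung, 2 of 3 in liver and 1 of 5 in skin. At that threshold 771 of all 11123 kidney genes were higher and 876 lower, and 1137 and 782 of 11949 in lung. In liver 377 and 522 of 5583 were, and in skin 484 and 650 of 14224.

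Of 18 genes that respond to NF-kB or STAT3, 17 were tested in kidney, lung and skin and 9 in liver. Vehicle exceeded young for 11 kidney genes, 10 lung genes, 7 liver genes and 6 skin genes, and none was called lower. The shares called higher over all genes were 7.75%, 8.15%, 11.7% and 5.84%. Irf1, an interferon response factor, rose in kidney (2.22), liver (1.91) and skin (0.97). Ccl2, a chemokine for monocytes, rose in kidney (2.79, SE 0.389), lung (7.11, SE 1.33) and skin (4.69, SE 1.3), from young levels of 1.13, 0.13 and 0.687 CPM. Vcam1, an adhesion molecule for leukocytes, rose in kidney (1.93), lung (2.24) and skin (4.42), and Nfkbie, an inhibitor of NF-kB, in the same tissues (1.92, 2.91 and 1.51). Socs3, a feedback inhibitor of STAT3 signalling, rose in lung (2.34) and liver (1.13, adjusted p = 0.0497). The other genes called in liver were Tnfaip2 (2.28), Nfkb2 (2.4), Icam1 (1.78), Cxcl1 (1.81) and Nfkbia (1.01). Between ABT-737 and vehicle, Irf1 was lower in kidney (-1.6, adjusted p = 0.00308) and liver (-1.52, adjusted p = 0.0399), and in liver so were Icam1, an adhesion molecule (-2.09, adjusted p = 0.0295), and Socs3 (-2, adjusted p = 0.0388). The median log2 fold change of this list for vehicle against young was 1.59 in lung, 1.15 in kidney, 0.54 in skin and 1.78 in liver, where the medians of all genes tested were 0.04, 0.01, 0.05 and 0.02.

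Most of 44 other interleukin and TNF family ligands were unread or under the filter, with 11 tested in lung, 8 in skin, 6 in kidney and 1 in liver. Il16, a chemoattractant of CD4+ cells, rose in vehicle against young in kidney (1.52), lung (1.81) and skin (1.55). In lung so did Ifng, which encodes interferon gamma (5.02, SE 0.944), Tnfsf14, another ligand of the lymphotoxin beta receptor (2.36), and Fasl, a death ligand of lymphocytes (4.53), and in skin Tnfsf13, a B cell ligand (2.54). None was called between ABT-737 and vehicle in the fit of 3 groups. There the unadjusted p was under 0.05 for 5 of 8 in skin, 3 of 11 in lung, 2 of 6 in kidney and 1 of 1 in liver. The numbers over all genes at that threshold are those given with the cytokine processing genes. With the lungs paired by number, a pairing chosen from these data, Ifng was called lower (-2.88, adjusted p = 0.0362).

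Summed levels of general leukocyte, macrophage and T cell markers were higher in vehicle than in young libraries in all tissues. Of the markers tested in these lists, only Lcp1 in liver was lower in vehicle (-0.65, adjusted p = 0.251). No T cell marker passed the filter in liver. The summed level of 5 general leukocyte markers was 60 to 75.2 CPM in young, 217 to 307 in vehicle and 107 to 125 in ABT-737 kidneys, and in liver it was 71.5 to 90.2, 277 to 419 and 79.7 to 95.1 CPM. In lung it was 530 to 745, 1230 to 3590 and 661 to 1550 CPM, and in skin 44.9 to 106, 247 to 572 and 84.6 to 162 CPM. Macrophage markers (6 genes) followed the same order of medians in kidney, lung and skin, with 182 to 259, 651 to 1060 and 270 to 459 CPM in kidney, and were lowest in ABT-737 in liver by median, with 248 to 363, 1390 to 1590 and 207 to 428 CPM. T cell markers (5 genes), which belong to cells that make lymphotoxins, reached 202 to 820 CPM in vehicle lungs against 19.5 to 39.5 CPM in young and 54.7 to 200 CPM in ABT-737 lungs. All 5 were called higher in vehicle than in young lung, against 8.15% of all lung genes tested. Vehicle replicate 5, the library with the highest Ltb and Tnf, had the highest T cell sum. It also had the highest leukocyte sum (3590 CPM) and the highest macrophage sum (4690 CPM) of the lungs. B cell markers (4 genes), also of cells that make lymphotoxins, had 80.3 to 135 CPM in young, 228 to 392 CPM in vehicle and 74.7 to 412 CPM in ABT-737 lungs, with a higher median in ABT-737 (333 CPM) than in vehicle (234 CPM). In kidney their median was also higher in ABT-737 (18 CPM) than in vehicle (7.07 CPM). Vehicle replicate 4 had the highest B cell sum and the highest Ltb level both in kidney, at 58.8 CPM against 6.57 and 7.07 CPM in the other vehicle libraries, and in liver, at 91.3 CPM against 10.3 and 17.5 CPM. In lung and skin, vehicle replicate 5 had the highest Ltb level but the lowest B cell sum of the vehicle libraries. Those sums were 228 CPM against 234 and 392 CPM in lung and 3.31 CPM against 8.35 and 10.3 CPM in skin. In kidney, vehicle replicate 4 also had the highest leukocyte, macrophage and T cell sums. In liver another vehicle library was highest for each of these. With the lungs paired by number, a pairing chosen from these data, Cd3d was called lower in ABT-737 than in vehicle (-2.71, adjusted p = 0.0362). The part of cell numbers in the cytokine values was not tested, and in whole tissue more cells of a type and more RNA per cell cannot be told apart.

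**Figure D5:**
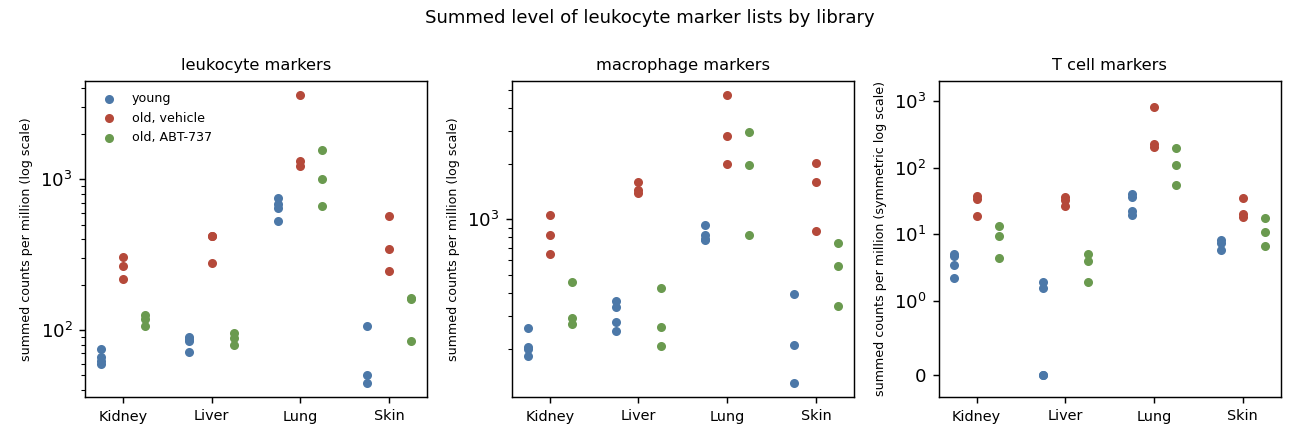
Summed CPM of leukocyte, macrophage and T cell marker genes in each library, by tissue and group, on log scales. Vehicle libraries lie above young ones for all 3 lists in all 4 tissues, and ABT-737 libraries lie below all vehicle ones for leukocyte markers in kidney, liver and skin.

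Across young tissues in the shared table, the levels fell into different orders by gene. Ltb was highest in lung (23.9 ± 10.6 CPM, SD, n = 4), followed by liver (4.7 ± 2.83 CPM) and kidney (2.31 ± 1.41 CPM). Lung exceeded kidney by 3.25 on the log2 scale (SE 0.53, adjusted p = 2.23e-06) and liver by 2.34 (SE 0.755, adjusted p = 0.00781), while kidney and liver were not told apart (-0.91, SE 0.994, adjusted p = 0.503). Il1b was also highest in lung, at 9.5 ± 3.29 CPM (SD, n = 4), by 2.84 over kidney (adjusted p = 9.42e-05) and by 2.96 over liver (adjusted p = 0.0165), and Il1rn was higher in lung than in kidney by 3.97 (adjusted p = 2.13e-05). Il18 had its highest young level in liver, at 20.5 ± 2.91 CPM (SD, n = 4), then lung at 6.23 ± 1.82 CPM and kidney at 2.52 ± 1.17 CPM, and each step was called (lung minus liver -1.7, adjusted p = 0.00197, lung minus kidney 1.24, adjusted p = 0.0171, and kidney minus liver -2.94, adjusted p = 7.26e-06). Il15 was highest in kidney, at 22.6 ± 7.4 CPM (SD, n = 4), against 4.13 ± 1.61 CPM in lung and 1.82 ± 1.24 CPM in liver. It was lower in lung than in kidney (-2.43, adjusted p = 1.43e-06) and higher in kidney than in liver (3.66, adjusted p = 2.44e-05), while lung and liver were not told apart (1.23, SE 0.828, adjusted p = 0.2).

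In these young comparisons 4 of 7 members tested were higher and 1 lower in lung than in kidney, where 32.6% of all 13107 genes were called higher and 31.7% lower. In lung against liver 2 were higher and 1 lower, against 37.6% and 24.6%, and in kidney against liver 1 was higher and 1 lower, against 27.6% and 13.7%. The median log2 difference over all genes was 0.45 in lung against liver and 0.39 in kidney against liver, so values against liver are to be read relative to these. For the change from young to vehicle, a test of the difference between tissues in the fit of kidney, liver and lung together called 0 of the 7 members with edgeR, and Il18 between lung and liver was called only with those tissues fitted alone. For all genes that test called 3.32% higher and 4.72% lower for lung minus kidney, 5.3% and 6.13% for lung minus liver, and 0.305% and 0.481% for kidney minus liver. For Ltb the differences were 0.02 (SE 1.4) between lung and kidney, -0.63 (SE 0.976) between lung and liver and -0.65 (SE 1.12) between kidney and liver.

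For the member with the most counts in each tissue, the genes whose log2 CPM followed it most closely were listed. In lung Ltb went with Vav1 (Pearson r = 0.99 over 10 libraries), Lrrc25 (0.987) and Ifi30 (0.984). In liver Ltb went with Cotl1 (0.97 over 10 libraries), Mark2 (0.958) and Irf7 (0.956). In kidney Il15 went with Ikbip (0.947 over 10 libraries), Akip1 (0.935) and Txndc9 (0.916), and in skin Il1rn went with Map2k4 (0.985 over 9 libraries), Glrx (0.974) and Col4a1 (0.963). The libraries of each tissue share their groups, so the correlations describe these libraries and carry no test.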

How the data were processed

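RNA of whole kidney, liver, lung and skin was sequenced from 3′ ends in 39 libraries. The authors deposited raw read counts per gene in 2 tables, 1 for kidney, liver and lung and 1 for skin, and the submitters' processing notes name bcl2fastq, HISAT 0.1.5, HOMER and the mm10 build. Collapsing of molecular barcodes and use of strand are not given in the sources used here. Groups came from the sample titles. The members and the gene lists were chosen with earlier results of these data known.

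Counts were tested as deposited with edgeR 4.0.16 (quasi-likelihood F test, TMM scaling, filterByExpr, limma 3.58.1, R 4.3.3), with the 3 groups of a tissue in 1 fit and Benjamini-Hochberg adjustment over all genes tested at 0.05. Young tissues, and differences between tissues, were tested in 1 fit of kidney, liver and lung, and the differences between tissues were added after seeing the data. The scripts were tested on simulated data. All 10 members were named in every tissue. Of each pathway list, as a rule at most 6 genes past the threshold were named for each tissue and comparison, smallest adjusted p first. Not every gene so ranked is named, and 7 are named for the NF-kB and STAT3 list in liver. The 3 genes most alike in log2 CPM (prior count 2) were named for the member with the most counts in a tissue.

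Alternatives were DESeq2 1.42.0, no filter beyond 1 count, only the groups compared, a replicate block and each library left out in turn. Vehicle and ABT-737 lungs of the same number deviated together (r = 0.18, 0.30 and 0.43 over 11949 genes). Lung numbers were therefore taken as pairs from the data, as the labels do not say that a number marks a shared litter or day. Vehicle replicate 4 and ABT-737 replicate 3, of unlike numbers, also had r = 0.30. The pairing was chosen from the values that the paired fit tests, so its calls are not independent evidence. Total counts ran from 223957 to 3842808 a library, and intervals and floors (3 counts) cover counting error only. The p-values measure the spread between libraries that are labelled as replicates.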

Additional observations from a re-analysis of the deposited data

Results flagged for a closer look

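In young kidneys, replicate 2 had an Il1b level of 0.551 CPM (2 counts), far from the other young kidneys, and an Il18 level of 4.69 CPM (17 counts), far above them. Among the 11 groups of 4 libraries examined in this way, chance alone marks about 1 in 20.

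Il18 values had opposite signs between tissues, and of these only the lung value for vehicle against young was called. The log2 fold change of vehicle against young was -0.94 in liver but 1.06 in lung, and 2.06 in skin, with every old vehicle library below all young ones in liver and above them in lung and skin. ABT-737 against young gave -1.32 in liver and 1.13 in lung, with the same lack of overlap. The liver values come from the fit with no filter beyond 1 count, because Il18 failed the filter in liver. The lung and skin values come from the filtered fit. The difference between lung and liver for vehicle against young was 1.93 (SE 0.718, adjusted p = 0.0753) by edgeR's interaction test, and the differences that involve skin or the ABT-737 group were not tested.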

How the results depend on the processing

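The number of cytokine genes called changed with the setting in every tissue. With no filter beyond 1 count, 2 were called in liver for ABT-737 against vehicle and 2 for vehicle against young, 3 in skin for vehicle against young, 2 in lung and 1 in kidney for ABT-737 against young. DESeq2 called 1 in kidney and 2 in lung for ABT-737 against young and 2 in skin for vehicle against young. With only the groups compared, 1 was called in liver and 1 in skin for vehicle against young. With 1 library left out in turn, vehicle against young gave 2 to 3 in kidney, 0 to 1 in liver, 2 to 5 in lung and 0 to 2 in skin. ABT-737 against vehicle gave 0 to 1 in kidney and 0 to 1 in liver, and ABT-737 against young gave 0 to 2 in lung and 0 to 1 in skin. Young lung gave 4 to 6 against kidney and 2 to 4 against liver. With a replicate block the number called between ABT-737 and vehicle stayed at 0 in each tissue, also outside lung, where same-numbered libraries did not deviate together.

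Some values changed sign. For Il15, ABT-737 against vehicle ranged over the fits that left out 1 library from -0.19 (ABT-737 replicate 4 left out; -0.12 for vehicle replicate 5) to 0.43 in kidney, and from -0.02 (ABT-737 replicate 5) to 0.91 in lung. In lung its range was -0.06 (ABT-737 replicate 5) to 0.86 for ABT-737 against young and -0.33 to 0.33 (vehicle replicate 4; 0.26 for young replicate 3) for vehicle against young. Il18 in lung ranged from -0.04 (vehicle replicate 4) to 0.23 between ABT-737 and vehicle, with -0.01 for vehicle replicate 3 and -0.02 for ABT-737 replicate 5. Lta in lung ranged from -0.59 (ABT-737 replicate 5) to 1.93 for ABT-737 against young. Il1rn between ABT-737 and vehicle ranged from -0.87 to 0.16 in lung and in skin from -0.7 to 0.21, and Il1b between vehicle and young skin from -0.62 to 1.47. The values of 0.16, 0.21 and -0.62 came without vehicle replicate 5 of the tissue. In young kidney against liver, DESeq2 gave -0.59 for Tnf and -0.97 for Lta, Il1b ranged from -0.31 (liver replicate 3) to 4.28, with -0.03 for kidney replicate 3 and -0.22 for liver replicate 1 and for liver replicate 4, and Il1rn ranged from -2.48 to 2.14 (liver replicate 1). The cause of these changes was not tested. Il6, Il1a and Il10 had too few counts for the filter in every tissue, as did all 10 genes in liver in the fit of 3 groups.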
